A study of Rattus norvegicus with 18 samples.

Results

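The unclamped right lung of rats whose left lung had been clamped and reperfused for 30 min was compared with lungs of control rats. The right lung group held 3 arrays and the control group 6, together 9 of the 18 arrays in the series, chosen by their titles, with 1 lung per array. The rats were male Sprague-Dawley, of an age not given in the sources used here. The right lungs came from anesthetized, tracheotomized and mechanically ventilated rats that had a left thoracotomy, a clamp on the left hilum for 2 h of warm ischemia and then 30 min of reperfusion of the left lung. The control lungs were taken from rats right after anesthesia and sacrifice, and the side of the control lung was not given. Clamping of the other lung, surgery, anesthesia, ventilation and time therefore all separate the groups, and their parts cannot be told apart. The left lungs at 30 min and the right lungs at 3 h (3 arrays each) were used to show where the right lung at 30 min differed from them. With the left lungs at 3 h they also entered the choice of tested probe sets and the estimate of spread behind the limma p-values.

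Closing a hilum stops the blood flow and the ventilation of that lung, and reopening it brings back oxygen. The other lung then carries the pulmonary blood flow during the clamp and, afterwards, receives blood that has passed through the reperfused lung. Genes known to respond fast to injury, stretch and stress hormones include chemokines, interleukin 6, transcription factors of the immediate early class and targets of the glucocorticoid receptor.

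The values were MAS5 signals, an intensity per probe set on a linear scale, from 1-colour Affymetrix rat 230A arrays. All differences below are of log2(signal + 25), tested with limma over 10533 probe sets with Benjamini-Hochberg adjustment, and a gene is said to have risen or fallen only at an adjusted p under 0.05. Signals of the right lungs at 30 min are given in the order of replicates 1, 2 and 3, and those of the 6 controls as the lowest, the median and the highest. Lungs of a group came from separate rats. The limma p-values weigh the spread within groups, pooled over the 5 groups of the series. Left and right lungs at 30 min came from the same rats and were treated there as separate. In bulk tissue, fewer cells of a type and less RNA per cell cannot be told apart.

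The median signal of the arrays was 265 ± 7.63 in the right lungs at 30 min and 275 ± 7.91 in the controls (SD, n = 3 and 6, exact permutation p = 0.0952, two-sided). Beta-actin is probed near both transcript ends, and its 3'/5' signal ratio, higher in degraded RNA, was 1.47, 1.49 and 2.93 in the right lungs, against 1.31 to 1.54 in the controls. The same ratio for Gapdh was 1.27, 1.26 and 3.04 in the right lungs, against 1.08 to 1.33 in the controls. Right replicate 3 thus stood apart in both ratios, while the difference between the groups did not pass (exact permutation p = 0.19, two-sided, for each ratio, where 3 against 6 arrays can reach 0.0238, and 0.19 after adjustment over the 3 array measures). Counts are therefore also given without that array. Defining genes of lung tissue were high in both groups. Surfactant protein C, Sftpc, of alveolar type II cells had signals of 12690, 10741 and 13942 in the right lungs, against 12483, 13764 and 15030 in the controls. The club cell secretoglobin Scgb1a1 had 12250, 10453 and 11396 in the right lungs, against 11649, 12366 and 12888 in the controls. Both overlapped between groups and neither passed the test (log2 difference -0.15 and -0.12).

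Of 7728 genes, 458 were higher (5.93%) and 489 lower (6.33%) in the right lungs at 30 min than in the controls, 12.3% in all. Most of these changes were small: the median size among the 947 called genes was 0.61 on the log2 scale, 107 rose and 50 fell by 2-fold or more, and 10 rose and 3 fell by 4-fold or more. Right lungs and controls did not overlap in 848 of the 947 called genes, while 20.7% of all tested genes did not overlap (9.29% with the right lungs higher and 11.4% with them lower). Over probe sets 639 were higher (6.07%) and 768 lower (7.29%), 13.4% in all, so that 45.4% of the calls were higher. With each array centred on its median 789 were higher and 608 lower, or 56.5%. Fitted on the 9 compared arrays alone 819 were higher and 1085 lower. In the fit over all groups without right replicate 1, 383 were higher and 428 lower. Without right replicate 3, the array of high actin ratio, 568 were higher and 622 lower. Counts of list members below are to be read beside 5.93% and 6.33%. The lists were written with earlier results of these data known, so these counts describe the members and are no test of a list. Fewer genes were called with an array left out. Without right replicate 1, 267 of the 7728 genes were higher and 237 lower, and without another array at most 393 and 425. List counts with an array left out are to be read beside those numbers. At an unadjusted p under 0.05 by limma, 926 of the 7728 genes were higher and 1187 lower.

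Inflammatory messengers were among the largest rises. Ccl2, the chemokine that draws monocytes, had signals of 1612, 403 and 1113 in the right lungs, against 46.8, 89.9 and 161 in the controls. Cxcl1, which draws neutrophils, had 4131, 2369 and 1745 in the right lungs, against 260, 429 and 680 in the controls. Interleukin 6, Il6, had 765, 208 and 470 in the right lungs, against 38.1, 48.5 and 54.0 in the controls. In all 3 genes the lowest right lung lay well above the highest control, and right replicate 1 was the highest of the group. The log2 differences were 3.04 ± 0.44 for Ccl2 (SE, adjusted p = 0.000246), 2.56 ± 0.30 for Cxcl1 (adjusted p = 4.19e-05) and 2.65 ± 0.53 for Il6 (adjusted p = 0.00343). Cxcl2, a close relative of Cxcl1, had 1159, 526 and 163 in the right lungs, against 66.7, 111 and 142 in the controls, so that replicate 3 was only just above the controls. Its call (log2 difference 1.92 ± 0.57, adjusted p = 0.0341) ended without any one of 6 of the 9 arrays, with adjusted p up to 0.209.

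**Figure D1:**
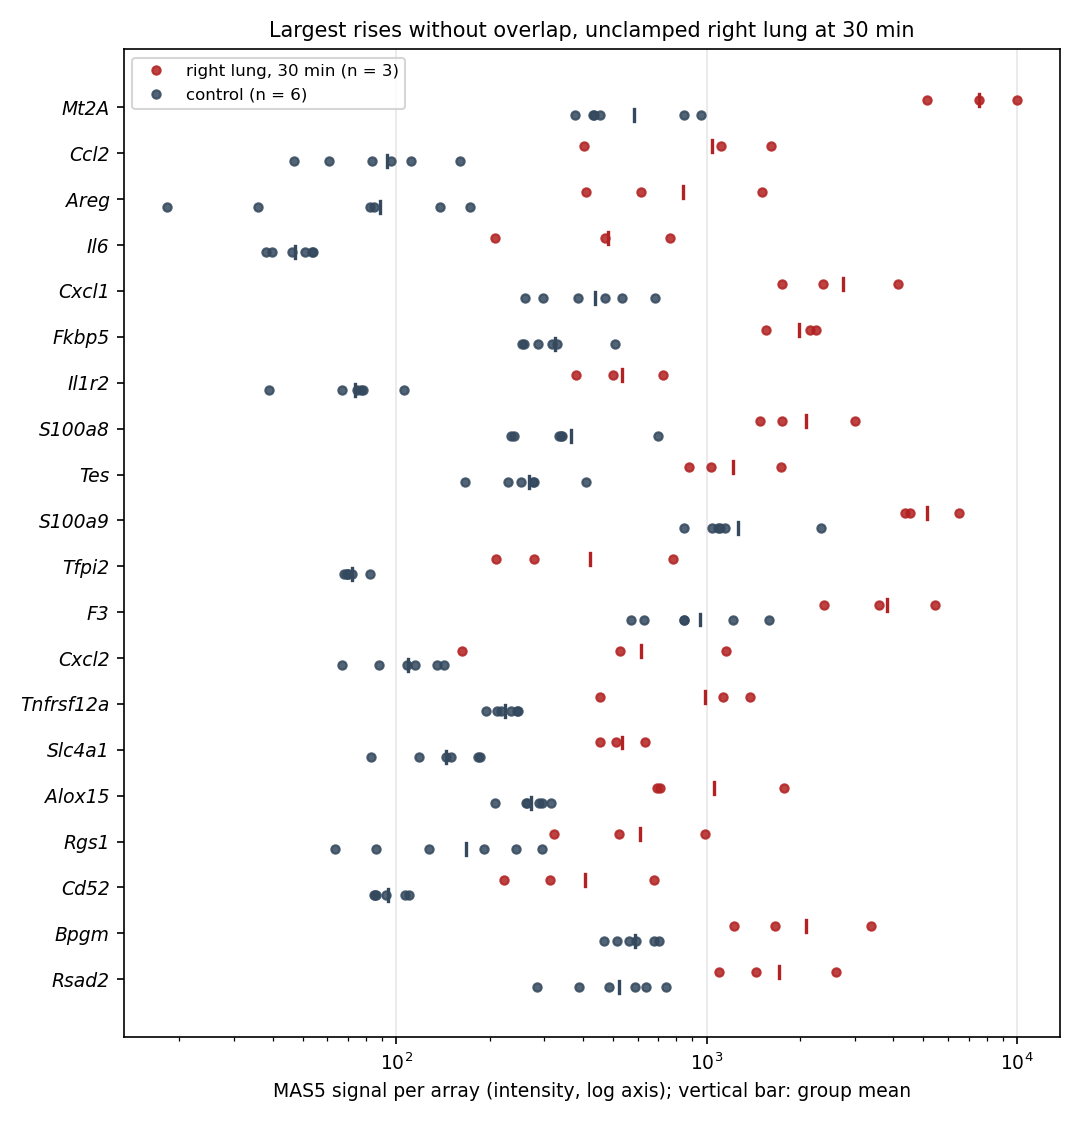
Signals of the 20 genes with the largest rises among those chosen for no overlap between the groups, per array, with the right lung at 30 min above the control in each row and the signal on a log axis; vertical bars are group means. The gap between the groups, present by that choice, is narrow in Cxcl2 and Rgs1, and in Slc4a1, Alox15, Cd52, Bpgm and Rsad2 right replicate 3 is the highest.

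Of 22 chemokines and chemokine receptors 5 rose and 2 fell. Beside Ccl2, Cxcl1 and Cxcl2 the rises were in Cxcl14 (log2 difference 0.85 ± 0.13, adjusted p = 0.000339), and in Ccl17, which draws T cells (1.47). Cxcr4, the receptor by which leukocytes home to Cxcl12, fell, with 900, 476 and 732 in the right lungs, against 1312, 1727 and 1818 in the controls. All right lungs were below all controls, and the log2 difference was -1.26 ± 0.21 (adjusted p = 0.000968). The neutrophil chemokine receptor Cxcr1 also fell (-0.51). The call of Ccl17 ended without right replicate 1 (adjusted p = 0.101) and that of Cxcr1 without any of 7 arrays (adjusted p up to 0.251). With 1 array left out, 3 to 6 chemokine genes rose, the fewest without right replicate 1, and 1 fell without any of 6 arrays.

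Signalling downstream of interleukin 6 runs through the receptor chain Il6st and the transcription factor Stat3 and is checked by the suppressors of cytokine signalling. In this list 7 of 16 genes rose and 1 fell, with a median log2 difference of 0.59, against -0.04 over all tested genes. The suppressor Socs2 had 398, 340 and 221 in the right lungs, against 103, 127 and 150 in the controls, and the groups did not overlap (log2 difference 1.17 ± 0.21, adjusted p = 0.00131). Socs3 had 1337, 547 and 448 in the right lungs, against 247, 307 and 406 in the controls, with replicate 1 far above the other 2 right lungs. Its log2 difference of 1.10 was 0.63 without right replicate 1, where the call ended (adjusted p = 0.144). Stat3 (0.72 ± 0.15), the interleukin 4 receptor Il4r (1.16 ± 0.21) and Il6st (0.60 ± 0.15) rose as well. A second probe set of Stat3 (-0.28) and both other probe sets of Il6st (-0.02 and 0.51) did not pass. The fall was in Stat5a (-0.39). Without right replicate 1 the list counts were 4 higher and 0 lower, the calls of Il6st (adjusted p = 0.0648) and Stat5a (adjusted p = 0.138) ending. That of Il6st also ended without right replicate 3 (adjusted p = 0.0663), and 2 genes fell without that array.

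The interleukin 1 axis moved in both directions. Il1r2, the decoy receptor that binds interleukin 1 without signalling, had 499, 723 and 378 in the right lungs, against 39, 75.7 and 106 in the controls. The lowest right lung was well above the highest control, and the log2 difference was 2.49 ± 0.46 (adjusted p = 0.00180). Il1b, interleukin 1 beta itself, had 1044, 492 and 480 in the right lungs, against 312, 430 and 514 in the controls; the groups overlapped and it did not pass (log2 difference 0.55 ± 0.37, adjusted p = 0.350). Of 10 genes of the list 4 rose (Il1r2, Il1a at 1.34, the adaptor Myd88 at 0.66 and the lipopolysaccharide co-receptor Cd14 at 1.03) and 1, the lipopolysaccharide receptor Tlr4, fell. Tlr4 had 337, 163 and 171 in the right lungs, against 347, 400 and 557 in the controls, with no overlap (-0.89 ± 0.19, adjusted p = 0.00581). The calls of Il1a, Myd88 and Cd14 ended without any one of 6, 9 and 7 arrays, so that 1 to 3 genes rose when an array was left out. The adjusted p then reached 0.208 for Il1a, 0.138 for Myd88 and 0.235 for Cd14, and a second probe set of Il1a (0.94) did not pass. Without right replicate 3, 2 genes of the list fell.

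Among 16 genes of the NF-kB pathway 3 rose and 1 fell. Nfkbia, the inhibitor that the pathway induces to switch itself off, had 5929, 4611 and 5358 in the right lungs, against 1576, 2754 and 3604 in the controls (log2 difference 1.02 ± 0.21, adjusted p = 0.00425). Tumor necrosis factor, Tnf, had 150, 268 and 110 in the right lungs, against 23.2, 56.7 and 81.5 in the controls (1.31 ± 0.27, adjusted p = 0.00361). Neither gene overlapped between groups. The rise of the hyaluronan-binding protein Tnfaip6 (1.0) ended without any of 8 arrays (adjusted p up to 0.213). The fall of the adhesion molecule Icam1 (-0.45) ended without control replicate 3 or 5 or right replicate 1 or 3 (adjusted p up to 0.161), which left 0 lower.

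Immediate early transcription factors, which need no new protein to be induced, differed widely between arrays. Fos had 5862, 906 and 807 in the right lungs, against 166, 424 and 2027 in the controls, and Egr1 had 7980, 2706 and 3285 in the right lungs, against 613, 1033 and 4335 in the controls. Right replicate 1 was the highest of all 9 arrays in both genes, but the groups overlapped and neither passed (log2 difference 1.65 ± 0.76 for Fos and 1.53 ± 0.63 for Egr1, adjusted p = 0.16 and 0.119). Of 24 factors 6 rose and 1 fell, with a median log2 difference of 0.68. Myc had 1162, 715 and 534 in the right lungs, against 201, 241 and 271 in the controls (1.58 ± 0.29, adjusted p = 0.00193), with no overlap. Junb, another AP-1 member, had 3873, 1319 and 1235 in the right lungs, against 586, 740 and 1057 in the controls, and its log2 difference of 1.26 was 0.73 without right replicate 1. Ier3 (1.22), Csrnp1 (1.12), the serum response factor Srf (0.67) and Mafk (0.54) made up the rises. Jun, the partner of Fos, did not pass at its probe set of highest mean (0.37, adjusted p = 0.207), while a second one did (0.92, adjusted p = 0.000285). The calls of Junb, Ier3, Csrnp1 and Mafk ended without right replicate 1 (adjusted p = 0.107, 0.132, 0.0873 and 0.0743) and that of Srf without right replicate 2 (adjusted p = 0.124), and a second probe set of Srf (-0.10) did not pass. The count of rises was 2 without right replicate 1 and at most 8 without another array, and 2 genes fell without control replicate 4. Klf2, a factor that shear stress keeps high in endothelium, fell, with 2357, 1626 and 2423 in the right lungs, against 3459, 4288 and 5912 in the controls (-1.08 ± 0.20, adjusted p = 0.00218).

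The growth factor receptor Egfr fell and 1 of its ligands rose. Amphiregulin, Areg, the ligand, had 1507, 613 and 409 in the right lungs, against 18.2, 83.4 and 173 in the controls, while the receptor Egfr had 142, 121 and 79.4 in the right lungs, against 198, 250 and 319 in the controls. Neither overlapped between groups (log2 difference 2.91 ± 0.45 for Areg, adjusted p = 0.000415, and -1.01 ± 0.20 for Egfr, adjusted p = 0.00288). Errfi1, an inhibitor that binds the receptor's kinase, had 4592, 3326 and 2847 in the right lungs, against 933, 1233 and 1635 in the controls (1.51 ± 0.21, adjusted p = 0.000189). Of 7 measured EGF receptors and ligands 1 rose and 1 fell, and of 15 regulators of MAP kinase and G protein signalling 4 rose and 0 fell. The 4 were Errfi1, Rgs1 (1.73), Rgs2 (1.20) and the GTPase Rhob (0.52). The calls of Rgs1 (adjusted p = 0.111), Rgs2 (adjusted p = 0.176) and Rhob (adjusted p up to 0.136, also ended without right replicate 2) ended without right replicate 1, where 1 of the list rose. A second probe set of Rgs2 (1.0) did not pass.

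Mt2A, a metallothionein that binds zinc and copper and is induced by metals, glucocorticoids and cytokines, had the largest rise of the tested genes. Its signals were 10030, 5129 and 7530 in the right lungs, against 376, 443 and 959 in the controls. The lowest right lung was above every control by a wide margin, and the log2 difference was 3.68 ± 0.32 (adjusted p = 1.98e-06). It was the only one of 10 tested genes for metallothioneins and zinc transport that rose (2 without right replicate 3), and the median of the list was 0.10. Its promoter is shown because it is the gene with the largest rise and because the core letters of the metal-response element, TGCGCNC or TGCACNC on either strand, recurred in it. The sequence below is from the RefSeq table of build GRCr8 and runs from 250 bases before to 50 bases after the gene start, with the matches in capitals.
Mt2A, chr19:10838659-10838958, minus strand: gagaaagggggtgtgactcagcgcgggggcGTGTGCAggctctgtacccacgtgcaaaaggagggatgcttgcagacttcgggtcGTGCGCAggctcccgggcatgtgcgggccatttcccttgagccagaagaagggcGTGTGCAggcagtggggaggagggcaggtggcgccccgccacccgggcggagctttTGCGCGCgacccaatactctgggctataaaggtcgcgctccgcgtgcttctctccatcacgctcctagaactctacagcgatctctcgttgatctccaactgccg
The 4 matches began 220, 165, 111 and 55 bases before the start. Of 33469 rat promoters of the same length 24.2% held at least 1 such match, and among the metallothionein and zinc transport genes 8 of 9 promoters did. A match describes these letters and is not a measured site.

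Of 21 genes of the glucocorticoid response, the gene of the glucocorticoid receptor among them, 8 rose and 1 fell, with a median log2 difference of 0.51. Mt2A, described above, was the largest of these rises. Fkbp5, a chaperone that damps the receptor, had 2254, 1556 and 2148 in the right lungs, against 255, 302 and 507 in the controls (log2 difference 2.54 ± 0.22, adjusted p = 1.98e-06). Klf9 had 3563, 4553 and 4750 in the right lungs, against 1439, 1899 and 2035 in the controls (1.20 ± 0.12, adjusted p = 1.16e-05), and a second probe set of it (0.82) did not pass. The kinase Sgk1 had 2332, 2351 and 2403 in the right lungs, against 1434, 1598 and 1769 in the controls (0.56 ± 0.10, adjusted p = 0.00128). None of the 3 overlapped, and the right lungs were close together in Sgk1. The receptor itself, Nr3c1, fell, with 989, 976 and 995 in the right lungs, against 1124, 1468 and 1601 in the controls (-0.52 ± 0.13, adjusted p = 0.0143). Tsc22d3, another known target, overlapped between groups and did not pass (0.32 ± 0.17, adjusted p = 0.209). With any 1 array left out 5 to 7 rose, the fewest without right replicate 1 or control replicate 6.

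Of 14 circadian clock genes 2 rose and 0 fell. The repressor Nfil3 had 469, 428 and 535 in the right lungs, against 161, 245 and 272 in the controls (log2 difference 0.96 ± 0.18, adjusted p = 0.00190). Cry2 rose by 0.71, but its call ended without right replicate 2 (adjusted p = 0.0805) and a second probe set did not pass (-0.75). Per1 overlapped between groups and did not pass (0.74 ± 0.28, adjusted p = 0.0858).

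Genes of growth arrest and cell survival rose together in part. Of 28 genes of apoptosis, p53 and cell cycle arrest 8 rose and 1 fell. Bcl2l1, which blocks the mitochondrial route of apoptosis, had 1292, 1435 and 1447 in the right lungs, against 352, 477 and 583 in the controls (log2 difference 1.52 ± 0.15, adjusted p = 1.16e-05), while a second probe set did not pass (-0.10). The stress sensors Gadd45a and Gadd45g rose by 1.19 ± 0.16 and 1.5 ± 0.23. Tnfrsf12a, the receptor for TWEAK, had 1382, 1128 and 455 in the right lungs, against 194, 226 and 247 in the controls (1.89 ± 0.29, adjusted p = 0.000428). Cflar, an inhibitor of caspase 8, rose by 1.09, with a call that ended without any of 8 arrays (adjusted p up to 0.182). Xiap, a caspase inhibitor, was the gene that fell, with 100, 75.4 and 99.8 in the right lungs, against 141, 234 and 308 in the controls (-1.05 ± 0.24, adjusted p = 0.00854). The list had 4 rises without right replicate 1, and 2 falls without control replicate 5.

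Tissue factor, F3, which starts coagulation, had 5434, 3602 and 2395 in the right lungs, against 571, 847 and 1593 in the controls. The groups did not overlap, and the log2 difference was 1.98 ± 0.30 (adjusted p = 0.000415). Tfpi2, a protease inhibitor of the tissue factor pathway inhibitor family, had 778, 210 and 278 in the right lungs, against 68.0, 69.5 and 82.0 in the controls (1.99 ± 0.50, adjusted p = 0.0149). The urokinase receptor Plaur had 405, 359 and 184 in the right lungs, against 67.7, 82.6 and 123 in the controls (1.54 ± 0.38, adjusted p = 0.0138). With tissue plasminogen activator Plat (0.71) and its receptor subunit S100a10 (0.55) they made up 5 rises among 18 genes of coagulation and fibrinolysis, and 0 fell. The calls of Tfpi2 (adjusted p = 0.107) and Plaur (adjusted p up to 0.0751) ended without right replicate 1, that of Plaur also without replicate 2. Those of Plat and S100a10 ended without any of 5 and 8 arrays (adjusted p up to 0.230 and 0.236). The list had 1 rise without right replicate 1, 2 without right replicate 2 and 3 without control replicate 1, 2 or 6.

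Interferon response genes rose in 5 of 26 and 0 fell. Rsad2, an antiviral enzyme, had 1095, 1441 and 2614 in the right lungs, against 285, 536 and 742 in the controls (log2 difference 1.64 ± 0.27, adjusted p = 0.000767). The interferon gamma receptor chain Ifngr1 rose by 0.63 ± 0.11, the kinase Eif2ak2 by 0.65, Ifit3 by 1.10 and Mx2 by 0.96. The calls of Ifit3 and Mx2 ended without right replicate 1 (3 rises left), that of Ifit3 also without 5 other arrays (adjusted p up to 0.175 for Ifit3 and 0.0514 for Mx2). In matrix remodelling 5 of 27 rose and 0 fell. Timp1, an inhibitor of matrix metalloproteinases, had 2486, 3035 and 2494 in the right lungs, against 772, 902 and 1013 in the controls (1.55 ± 0.31, adjusted p = 0.00303). The protease Adamts1 had 4232, 1994 and 2662 in the right lungs, against 678, 734 and 1429 in the controls (1.64 ± 0.30, adjusted p = 0.00180). Cathepsin K, Ctsk (0.89 ± 0.19), cathepsin L, Ctsl (0.48), and the neutrophil collagenase Mmp8 (1.44) were the others. The count was 3 without right replicate 1 or 2 or control replicate 6, all of which ended the call of Ctsl (adjusted p up to 0.143), while that of Mmp8 ended without any of 8 arrays (adjusted p up to 0.224), and 1 gene fell without right replicate 2. The gelatinase Mmp9 did not pass at its probe set of highest mean (0.67, adjusted p = 0.185), while a second one did (2.10, adjusted p = 0.0143). That second probe set was dim, with mean signals of 142 in the right lungs and 13.9 in the controls, the latter near the 5th percentile of all signals (8.82). Tes, a focal adhesion protein outside these lists, had 1031, 1736 and 878 in the right lungs, against 167, 264 and 409 in the controls (2.06 ± 0.26, adjusted p = 6.2e-05).

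**Figure D2:**
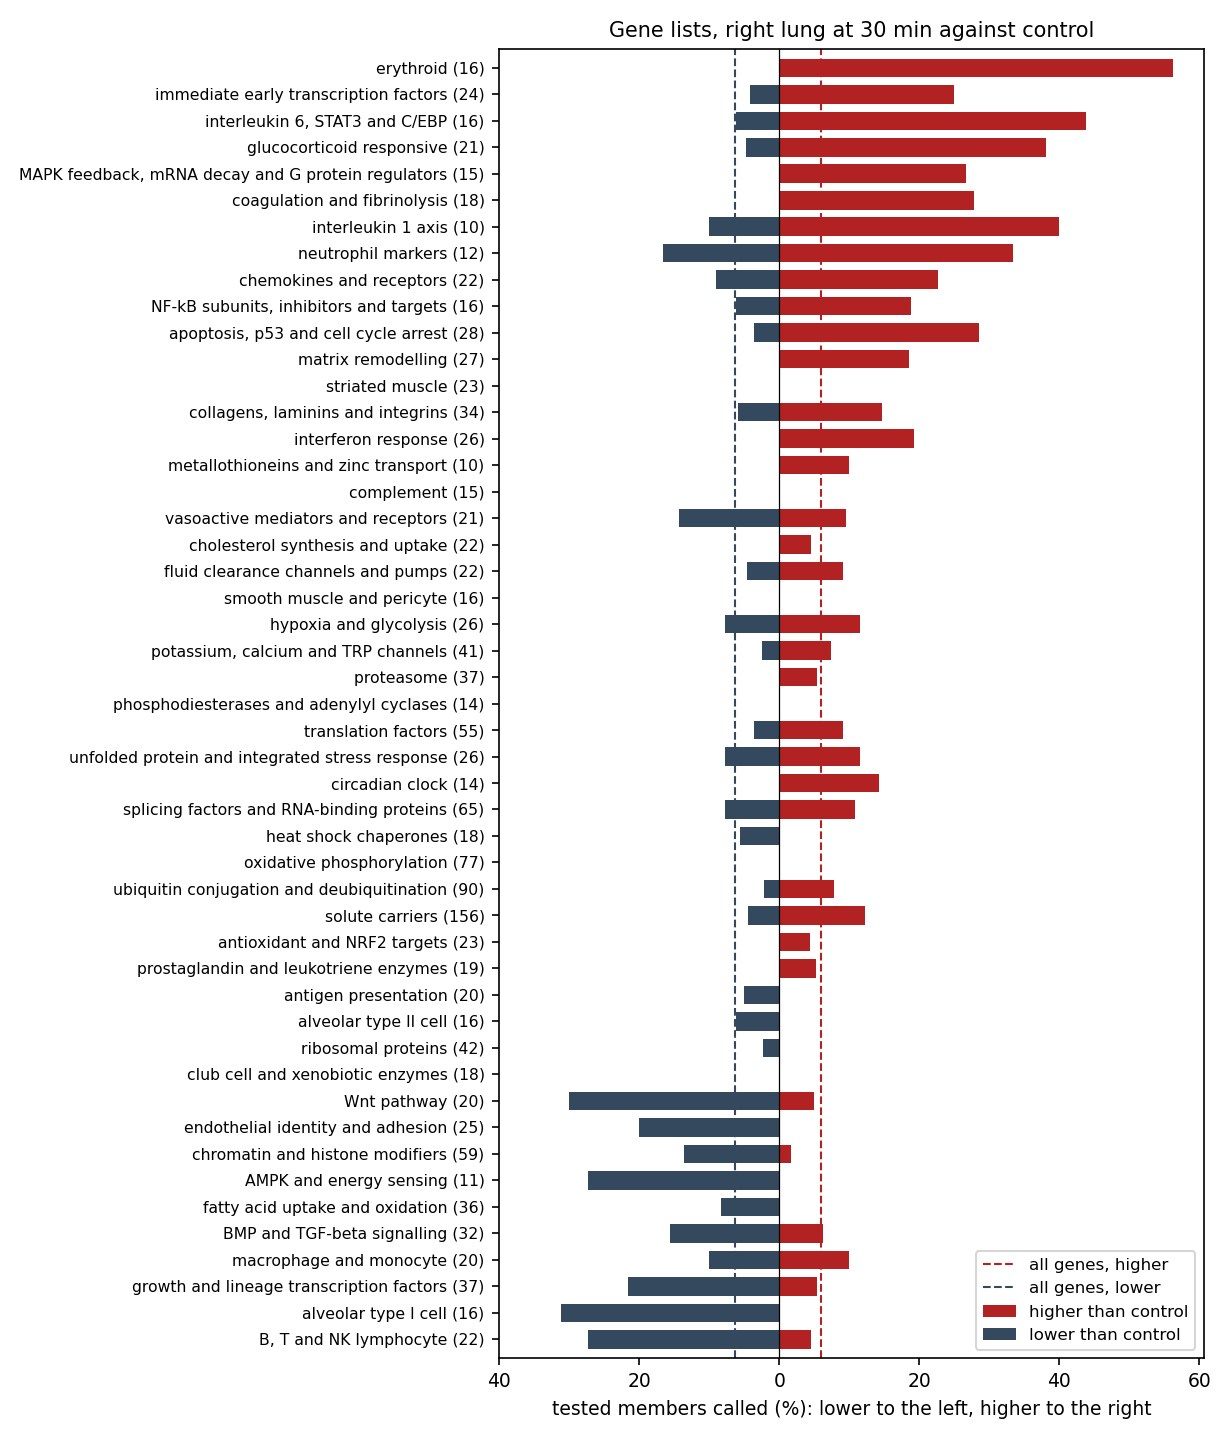
Share of the tested members called higher (bars to the right) or lower (bars to the left) in the right lung at 30 min than in control, for lists of at least 10 tested genes, in order of their median log2 difference, with the number tested in brackets; dashed lines mark 5.93% and 6.33%, the shares over all genes. Erythroid genes had the largest share higher (9 of 16), and alveolar type I, Wnt, lymphocyte and AMPK lists had the largest shares lower.

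Stress pathways known from oxygen lack, heat and protein damage had shares of called genes on both sides of those over all genes. By list, 0% to 11.5% of the members rose and 0% to 7.69% fell. Of 18 heat shock chaperones 0 rose by limma (1 at an unadjusted p under 0.05) and 1 fell, and 1 rose without right replicate 3. Hspa1a, the inducible chaperone, had 2300, 1501 and 892 in the right lungs, against 856, 1108 and 1452 in the controls, which overlapped (log2 difference 0.37 ± 0.27, adjusted p = 0.390). Hspa4, a nucleotide exchange factor for Hsp70, had 456, 328 and 425 in the right lungs, against 780, 869 and 919 in the controls (-1.07 ± 0.15, adjusted p = 0.000182). Of 26 genes of the unfolded protein and integrated stress responses 3 rose and 2 fell. The transcription factor Atf4 had 5267, 4890 and 4234 in the right lungs, against 2432, 2717 and 3068 in the controls (0.80 ± 0.13, adjusted p = 0.000588), and Eif2ak2 and Ppp1r15a (0.80) rose, while Pdia3 (-0.43) and Vldlr (-0.68) fell. The call of Ppp1r15a ended without any of 7 arrays (adjusted p up to 0.204), that of Pdia3 without right replicate 3 (adjusted p = 0.0559) and that of Vldlr without control replicate 1 or 5 or right replicate 1 or 3 (adjusted p up to 0.173). With 1 array left out, 2 or 3 of the list rose and 1 to 3 fell, 1 without control replicate 1 or 5 or right replicate 1 or 3. Other probe sets of Pdia3 (0.00) and Vldlr (-0.55 and -0.44) did not pass.

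Of 26 genes of hypoxia and glycolysis 3 rose and 2 fell. Pdk1, which keeps pyruvate out of mitochondria, had 354, 383 and 348 in the right lungs, against 231, 273 and 288 in the controls (log2 difference 0.42 ± 0.10, adjusted p = 0.00808), with a second probe set that did not pass (0.66). The glucose transporter Slc2a3 (1.01) and the glycolysis activator Pfkfb3 (1.23) rose, and the oxygen sensor Egln1 (-0.36) and the collagen hydroxylase P4ha1 (-0.46) fell. The growth factor Vegfa did not pass at its probe set of highest mean (-0.51, adjusted p = 0.0506), while a second one did (-0.86, adjusted p = 0.0342). Second probe sets of Slc2a3 (0.13) and Pfkfb3 (0.04) did not pass. The call of Slc2a3 ended without any 1 of the 9 arrays (adjusted p up to 0.144). The calls of Pfkfb3, Egln1 and P4ha1 ended without right replicate 1 or 2 (adjusted p up to 0.113, 0.0999 and 0.0924), so that 1 rose and 0 fell without either. Of 23 antioxidant genes 1, Gclc of glutathione synthesis, rose (0.58). Its call ended without right replicate 1 (adjusted p = 0.111), where 0 rose and 1 fell, while 3 rose without right replicate 3, and a second probe set of Gclc (0.27) did not pass. By limma 0 of 77 oxidative phosphorylation genes passed in either direction. At an unadjusted p under 0.05, 5 were higher and 6 lower, beside 926 and 1187 of all 7728 genes.

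The deepest fall was in Prkaa2, a catalytic subunit of AMPK, the kinase that senses a low energy charge. Its signals were 9.67, 7.78 and 11.4 in the right lungs, against 102, 273 and 321 in the controls. The right lungs lay around the 5th percentile of all signals (8.82) and far below every control, so no fold is given (adjusted p = 5.46e-07). Of 11 genes of energy sensing 3 fell and 0 rose. The other 2 were the mTOR inhibitors Tsc1 (-0.47) and Tsc2 (-0.52). Their calls ended without any of 8 and 4 arrays (adjusted p up to 0.175 and 0.141), and 1 gene fell without control replicate 1 or 5 or right replicate 1 or 2.

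**Figure D3:**
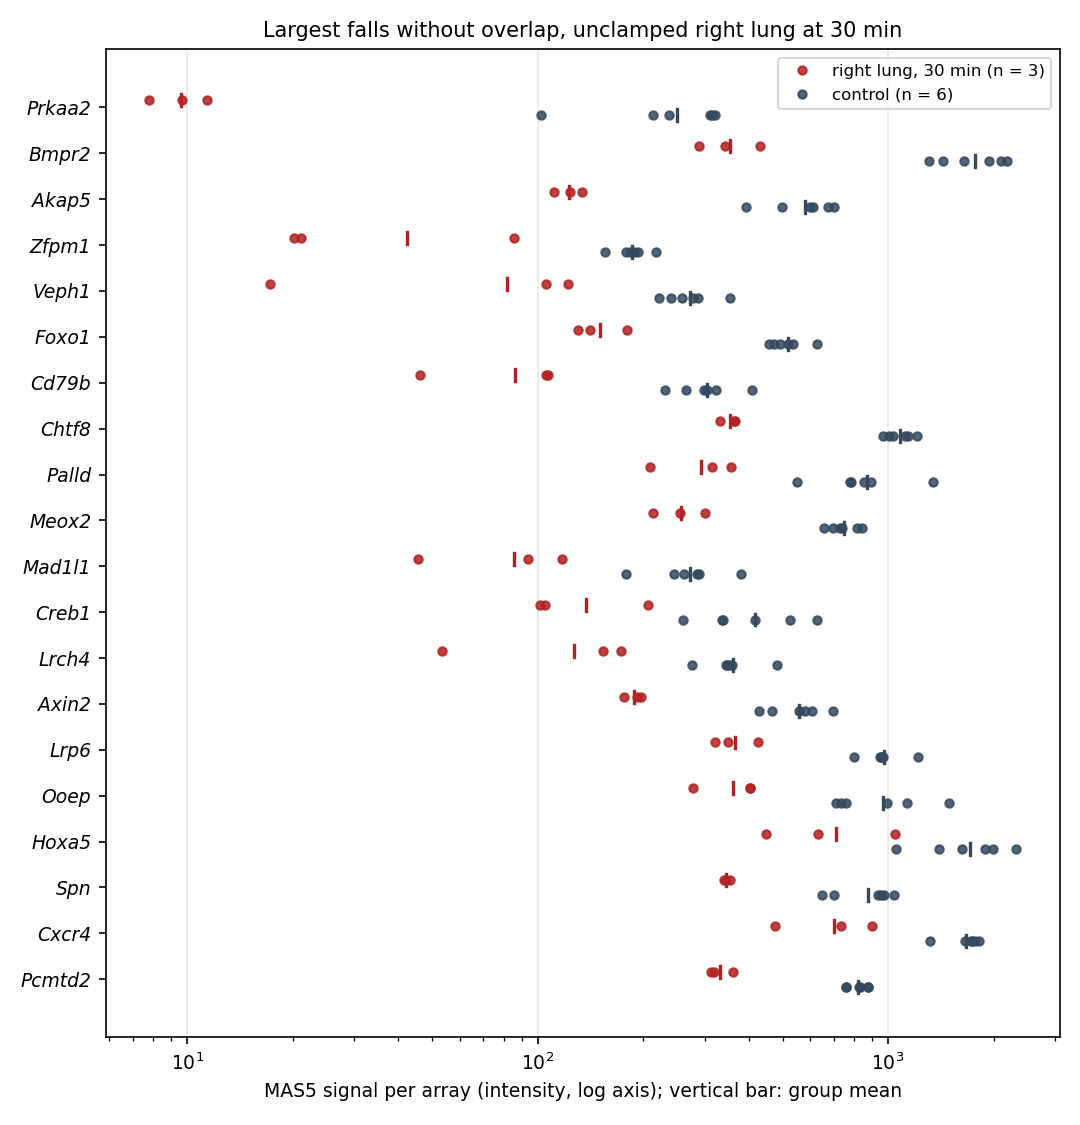
Signals of the 20 genes with the largest falls among those chosen for no overlap between the groups, per array, with the right lung at 30 min above the control in each row and the signal on a log axis; vertical bars are group means. The gap between the groups, present by that choice, is a signal of about 1 in Hoxa5, and Prkaa2 is close to the floor of the arrays in all 3 right lungs.

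Both receptor types of the BMP pathway, which keeps lung vessels quiescent, fell. Bmpr2, the type II receptor, had 288, 343 and 430.5 in the right lungs, against 1311, 1794 and 2179 in the controls. The type I receptor Bmpr1a had 232, 235 and 285 in the right lungs, against 399, 451 and 532 in the controls. The inhibitory Smad7 had 332, 239 and 313 in the right lungs, against 454, 684 and 813 in the controls. None of the 3 overlapped, and the log2 differences were -2.23 ± 0.20 (adjusted p = 2.94e-06), -0.82 ± 0.14 (adjusted p = 0.0012) and -1.06 ± 0.17 (adjusted p = 0.000595). The signal carrier Smad1 rose, with 1750, 1701 and 1507 in the right lungs, against 804, 1042 and 1163 in the controls (0.69 ± 0.14, adjusted p = 0.0043), and the ligand Tgfb2 rose by 0.65 ± 0.13. Second probe sets of Smad1 (0.25) and Tgfb2 (0.29) did not pass. Of 32 genes of BMP and TGF-beta signalling 2 rose and 5 fell, the last 2 being Bmp6 (-0.44) and the target Id4 (-1.19). The call of Bmp6 ended without any of 5 arrays (adjusted p up to 0.139) and that of Id4 without right replicate 3 (adjusted p = 0.0570, log2 difference -0.67).

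In the Wnt pathway 6 of 20 genes fell and 1 rose. Axin2, a target and inhibitor of the pathway, had 192, 197 and 177 in the right lungs, against 429, 567 and 696 in the controls (log2 difference -1.43 ± 0.14, adjusted p = 6.36e-06). The co-receptor Lrp6 had 348, 321 and 425 in the right lungs, against 801, 957 and 1215 in the controls (-1.35 ± 0.18, adjusted p = 0.000119). Both were without overlap and the right lungs were close together in Axin2. The receptors Fzd1 (-0.72) and Fzd2 (-1.02), the scaffold Apc (-0.45) and the transcription factor Tcf7 (-0.62) also fell. The receptor Fzd4 had 1600, 1888 and 2139 in the right lungs, against 1069, 1156 and 1410 in the controls and rose (0.65 ± 0.14, adjusted p = 0.00581), while its second probe set did not pass (-0.12). The calls of Fzd1, Apc and Tcf7 ended without right replicate 2 (adjusted p = 0.0927, 0.0552 and up to 0.124), leaving 3 lower. Those of Fzd2 (adjusted p = 0.0768) and Tcf7 ended without right replicate 1.

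Among 37 transcription factors of growth and lineage 8 fell and 2 rose. Foxo1, which Akt signalling switches off, had 141, 131 and 180 in the right lungs, against 457, 506 and 628 in the controls (log2 difference -1.63 ± 0.17, adjusted p = 1.16e-05). Creb1, the cAMP-responsive factor, had 206, 105 and 102 in the right lungs, against 261, 378 and 628 in the controls (-1.45 ± 0.26, adjusted p = 0.00160). The GATA partner Zfpm1 had 21.1, 85.4 and 20.2 in the right lungs, against 156, 186 and 218 in the controls (-1.78 ± 0.50, adjusted p = 0.0265), which passed neither without right replicate 1 or 3 (adjusted p up to 0.113) nor with a pseudocount of 5. Nr2f2, a factor of vein identity, had 649, 904 and 632 in the right lungs, against 1422, 1623 and 1817 in the controls (-1.15 ± 0.19, adjusted p = 0.000929). Hoxa5, of lung patterning, had 1049, 448 and 630.0 in the right lungs, against 1050, 1759 and 2322 in the controls, with the highest right lung at the level of the lowest control (-1.28 ± 0.26, adjusted p = 0.00363). The rises were in Zeb1 (0.55), which lost its call without right replicate 3 (adjusted p = 0.106), and in the cAMP-response modulator Crem (1.29), which lost it without right replicate 1 or 2 (adjusted p up to 0.143). Crem was named after its values were seen. Without any 1 of the right lungs 1 of the list rose.

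Outside these lists the homeobox factor Meox2 had 301, 213 and 255 in the right lungs, against 654, 733 and 844 in the controls (log2 difference -1.46 ± 0.19, adjusted p = 9.8e-05). Chtf8, part of a loader of the replication clamp, had 331, 362 and 367 in the right lungs, against 968, 1077 and 1210 in the controls (-1.54 ± 0.11, adjusted p = 1.34e-07). The actin-binding protein Palld fell by 1.47 ± 0.21 and the spindle checkpoint protein Mad1l1 by 1.46 ± 0.30 on the log2 scale. Pcmtd2 fell by 1.25 ± 0.18, while its second probe set did not pass (-0.03). Veph1 had 17.2, 122 and 105 in the right lungs, against 221, 267 and 355 in the controls. Its log2 difference of -1.66 was -1.09 without right replicate 1, and it still passed (adjusted p = 0.00586). The falls of Lrch4 (-1.44) and Ooep (-1.33) did not pass without right replicate 3 (adjusted p = 0.0803 and 0.0820).

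Enzymes that modify histones and remodel chromatin were lower in 8 of 59 and higher in 1, Chd8 (0.63). The demethylase Kdm5b had 333, 379 and 330 in the right lungs, against 580, 655 and 747 in the controls (log2 difference -0.87 ± 0.11, adjusted p = 6.2e-05), and Arid4a had 178, 148 and 175 in the right lungs, against 285, 302 and 392 in the controls (-0.82 ± 0.14, adjusted p = 0.0011). Both were without overlap. Only 3 of the list fell without right replicate 1, and 5 without control replicate 5. Splicing factors and RNA-binding proteins were called in both directions, 7 of 65 higher and 5 lower, with Hnrnpa1 at 0.65 ± 0.12 and Hnrnpul1 at -0.67 ± 0.11. The other 2 probe sets of Hnrnpa1 (0.12 and 0.31) did not pass. Without right replicates 1 and 2 in turn 2 and 4 rose. With 1 array left out 2 to 4 fell, the fewest without control replicate 1 or 5, and 3 without control replicate 2, 3, 4 or 6 or right replicate 3. Of 37 proteasome genes 2 rose, among them Psmd13 (0.60 ± 0.12), and 1 without right replicate 1. Of 42 ribosomal protein genes 0 rose and 1 fell, and 0 fell without any of 7 arrays.

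Alveolar type I cells, the thin cells of gas exchange, were represented by 16 genes, of which 5 fell and 0 rose. Akap5, an anchor for protein kinase A, had 112, 134 and 123 in the right lungs, against 394, 606 and 703 in the controls (log2 difference -2.01 ± 0.48, adjusted p = 0.0114). The water channel Aqp5 had 1263, 1655 and 1171 in the right lungs, against 2059, 2374 and 2863 in the controls (-0.80 ± 0.20, adjusted p = 0.0135). The receptor Ager had 5804, 5751 and 4391 in the right lungs, against 6808, 7269 and 7788 in the controls (-0.46 ± 0.12, adjusted p = 0.0189). Podoplanin, Pdpn (-0.36), and Emp2 (-0.34) were the other 2, with calls that ended without any of 8 and 9 arrays (adjusted p up to 0.177 and 0.113). The mean level of the list, in log2 units, lay at 11 to 11.2 in the right lungs, against 11.5 in all controls to that precision, and was lowest in right replicate 3, the array of high actin ratio. Without that array 1 gene, Akap5, fell, and the calls of Aqp5 (adjusted p up to 0.0583, also ended without right replicate 1) and Ager (adjusted p = 0.106) ended. Without any other single array 3 fell, and with arrays centred on their medians 3 fell. With the actin ratio as a covariate the calls of Akap5, Aqp5, Ager and Emp2 stayed and that of Pdpn ended. The part of RNA quality in this result was not tested beyond that fit.

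Of 16 type II cell genes 1, the lineage factor Nkx2-1, fell (log2 difference -0.64), with 1079, 1484 and 1660 in the right lungs, against 1872, 2234 and 2338 in the controls. Its call ended without any of 7 arrays (adjusted p up to 0.197), leaving 0 lower. By limma 0 of 18 club cell genes passed, with 3 lower at an unadjusted p under 0.05, and 0 of 23 striated muscle and 0 of 16 smooth muscle genes, with 0 and 1 at that level. Among them 1 club cell gene fell without control replicate 5 or any right lung. The mean level of the striated muscle list ranged from 7.11 to 8.93 in the right lungs and from 7.04 to 8.64 in the controls, in log2 units, a wide spread in both groups.

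Among 25 genes of endothelial identity and adhesion 5 fell and 0 rose. The VEGF receptor Kdr had 3703, 3941 and 3594 in the right lungs, against 4994, 5350 and 5870 in the controls (log2 difference -0.52 ± 0.13, adjusted p = 0.0143). The receptor Calcrl for adrenomedullin and CGRP had 771, 917 and 539 in the right lungs, against 1153, 1462 and 1785 in the controls (-0.98 ± 0.26, adjusted p = 0.0210). Klf2, Icam1 and the apelin receptor Aplnr (-0.65) were the others. Pecam1, a defining gene of endothelium, had 1623, 1477 and 2677 in the right lungs, against 1338, 1468 and 1651 in the controls, overlapped and did not pass (0.34 ± 0.17, adjusted p = 0.213). The calls ended without right replicate 1 for Kdr (adjusted p = 0.0523), without replicate 1 or 3 for Calcrl (adjusted p up to 0.103) and without replicate 2 or 3 for Aplnr (adjusted p up to 0.103). The call of Icam1 ended without right replicate 1 or 3. The list had 2 falls without right replicate 1 or 3, and 1 rise without right replicate 3 or control replicate 3.

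Receptors of vasoactive mediators were called in both directions, 2 of 21 higher and 3 lower. The angiotensin II receptor Agtr1a had 1299, 1121 and 1283 in the right lungs, against 573, 621 and 769 in the controls (log2 difference 0.90 ± 0.13, adjusted p = 0.000285). The adenosine receptors moved apart, Adora2b rising by 0.77 and Adora2a falling by 0.84, and the VIP receptor Vipr1 fell by 0.74 and Calcrl as above. The call of Adora2b ended without any of 7 arrays (adjusted p up to 0.156), which left 1 higher in each. The calls of Adora2a (adjusted p up to 0.151) and Vipr1 (adjusted p up to 0.0854) ended without right replicate 2 or 3, leaving 1 and 0 lower, and that of Vipr1 also without control replicate 4.

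Neutrophil genes were called in both directions. S100a8 and S100a9, the calgranulins that fill neutrophils, had 1492, 3015 and 1751 and 4376, 6497 and 4537 in the right lungs, against 235, 338 and 696 and 847, 1098 and 2342 in the controls. Neither overlapped, and the log2 differences were 2.46 ± 0.40 (adjusted p = 0.000647) and 2.06 ± 0.31 (adjusted p = 0.000353). With Il1r2 and Mmp8 they made 4 rises among 12 neutrophil genes, while Cxcr1 and the Fc receptor Fcgr3a (-0.67) fell. The call of Fcgr3a ended without control replicate 3 or right replicate 1 or 3 (adjusted p up to 0.149), each of which left 0 lower, and 1 fell without any of 4 other arrays. The mean level of the list lay at 8.48 to 9.27 in the right lungs, against 7.88 to 8.42 in the controls, in log2 units.

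Of 22 B, T and NK lymphocyte genes 6 fell and 1 rose. By their log2 difference 2 of the 22 were above control, beside 3434 of all 7728 tested genes. The B cell receptor chain Cd79b had 46.3, 107 and 106 in the right lungs, against 230, 301 and 410 in the controls (log2 difference -1.6 ± 0.34, adjusted p = 0.00526). The T cell genes Cd3d (-0.84), Cd8a (-0.95) and Lck (-0.60), the protease Gzmm (-1.6) and Ptprcap (-0.60) fell with it. The mean level of the list was 7.98 to 8.40 in the right lungs and 8.40 to 8.72 in the controls, in log2 units. The receptor Il7r rose, with 215, 261 and 286 in the right lungs, against 51.6, 90.6 and 120 in the controls (1.32 ± 0.30, adjusted p = 0.00918). Cd79b alone still fell without right replicate 1, and 3 genes fell without right replicate 2. The calls of Gzmm and Cd3d each ended without any of 6 arrays (adjusted p up to 0.162 and 0.220). Those of Cd8a (adjusted p up to 0.125), Lck (adjusted p up to 0.104) and Ptprcap (adjusted p = 0.0623) ended without right replicate 1, that of Cd8a also without replicate 3 and that of Lck without replicate 2. Spn, the sialoglycoprotein CD43 of leukocytes, had 344, 340 and 353 in the right lungs, against 646, 946 and 1040 in the controls (-1.26 ± 0.19, adjusted p = 0.000394).

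Of 20 macrophage and monocyte genes 2 rose (Cd14 and the lectin Clec10a at 1.32) and 2 fell (the growth factor receptor Csf1r and the protease Ctsd at -0.47). Csf1r had 1048, 1124 and 905 in the right lungs, against 1295, 1679 and 1866 in the controls (log2 difference -0.65 ± 0.12, adjusted p = 0.00243). The call of Clec10a ended without right replicate 1 or 3 (adjusted p up to 0.0582) and that of Ctsd without any of 8 arrays (adjusted p up to 0.106). The list had 0 rises without right replicate 1 and 1 without any of the other arrays except control replicate 3, and 1 fell without any of 6 arrays. Of 20 antigen presentation genes 1, the class II transactivator Ciita, fell (-0.66 ± 0.14, adjusted p = 0.00489). Of 6 mast cell genes 1, the receptor Kit, fell, with 269, 123 and 217 in the right lungs, against 306, 468 and 571 in the controls (-1.09 ± 0.20, adjusted p = 0.00163), while the mast cell protease gene Cpa3 did not pass (-0.08).

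Genes of red cell precursors rose in 9 of 16 and 0 fell, with a median log2 difference of 0.77. Slc4a1, the band 3 anion exchanger of the red cell membrane, had 511, 453 and 633 in the right lungs, against 82.6, 147 and 185 in the controls (log2 difference 1.74 ± 0.20, adjusted p = 2.94e-05). Alas2, the first enzyme of heme synthesis in red cell precursors, had 2881, 3311 and 7126 in the right lungs, against 1004, 1227 and 1772 in the controls (1.62 ± 0.28, adjusted p = 0.0012). Bpgm, which makes 2,3-bisphosphoglycerate, had 1228, 1664 and 3381 in the right lungs, against 469, 579 and 704 in the controls (1.67 ± 0.26, adjusted p = 0.000456). No right lung overlapped with a control in these genes, and replicate 3 was the highest in each. Ahsp, the chaperone of alpha globin, rose by 1.25 ± 0.22 and the transferrin receptor Tfrc by 1.01 ± 0.17, while Hbb, beta globin, had 15026, 12964 and 16527 in the right lungs, against 11152, 13104 and 15011 in the controls, overlapped and did not pass (0.17 ± 0.12, adjusted p = 0.410). The heme enzyme Fech (1.43) had 712, 1164 and 2741 in the right lungs, against 378, 425 and 733 in the controls, and was 0.91 without right replicate 3, where the call ended (adjusted p = 0.111). The blood group genes Rhd (0.79) and Kel (0.75) rose, but did not pass without right replicate 3 (adjusted p = 0.142) and right replicate 2 (adjusted p = 0.0822). The remaining call was in an alpha globin gene, whose near-identical copies the array may not tell apart. Without right replicate 3, 6 of 16 rose. The mean level of the list was 9.96 to 10.6 in the right lungs at 30 min, 9.52 to 9.62 in the left lungs at 30 min, 9.51 to 9.92 in the right lungs at 3 h and 9.21 to 9.59 in the controls, in log2 units.

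Alox15 (a lipoxygenase that breaks down organelles in maturing reticulocytes), Ube2o (a ubiquitin enzyme of reticulocytes) and Rbm38 (an RNA-binding protein) had the same pattern of samples. Alox15 had 707, 695 and 1775 in the right lungs, against 208, 276 and 315 in the controls (log2 difference 1.74 ± 0.26, adjusted p = 0.000285). Ube2o had 805, 739 and 1803 in the right lungs, against 204, 334 and 434 in the controls (1.6 ± 0.23, adjusted p = 0.000206). Rbm38 had 674, 653 and 1816 in the right lungs, against 293, 408 and 429 in the controls, and its log2 difference of 1.21 was 0.74 without right replicate 3, where it still passed. Cd52, a surface glycoprotein of leukocytes, had 314, 223 and 678 in the right lungs, against 84.7, 89.4 and 110 in the controls (1.71 ± 0.25, adjusted p = 0.000264). Replicate 3 was again the highest, and it was the array of high actin ratio. With the actin ratio as a covariate Alox15, Ube2o, Rbm38 and Cd52 kept their calls. The part of RNA quality was not tested beyond that fit, and that of blood left in the vessels was not tested.

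**Figure D4:**
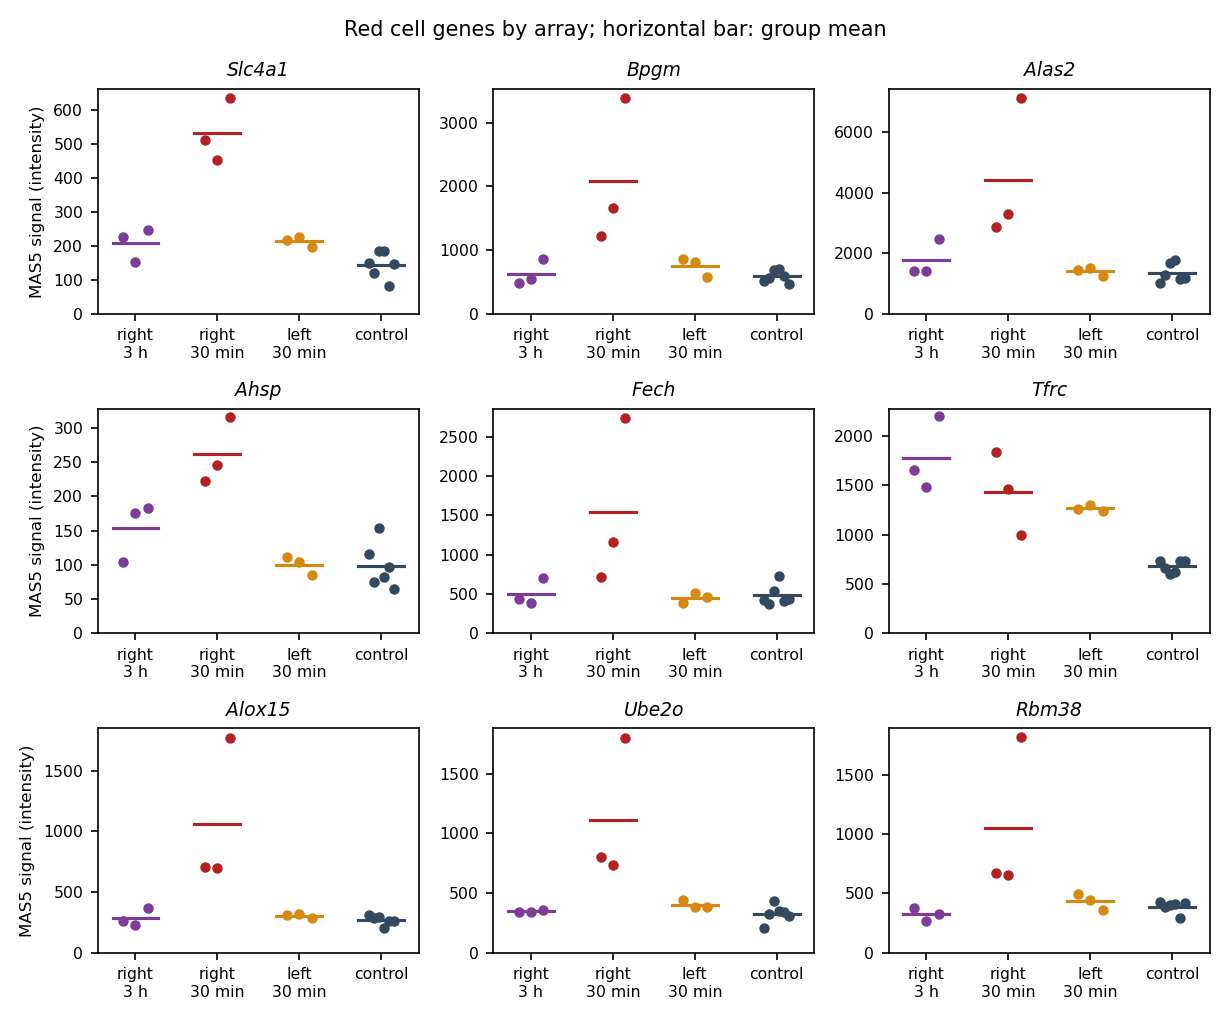
Signals of 9 genes of red cells and their precursors by array, in right lungs at 3 h, right lungs at 30 min, left lungs at 30 min and controls, each axis starting at 0; horizontal bars are group means. Except in Tfrc, where the right lungs at 3 h are highest, the right lungs at 30 min have the highest mean of the 4 groups, with replicate 3 the highest of them.

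The promoters of the called erythroid genes that held the letters AGATAA or TGATAA on either strand, the core bound by GATA factors such as Gata1 of red cell precursors, are shown because these genes moved together. This motif was added after the values were seen. The sequences are from RefSeq, build GRCr8, with the match in capitals.
Alas2, chrX:22895200-22895499, plus strand: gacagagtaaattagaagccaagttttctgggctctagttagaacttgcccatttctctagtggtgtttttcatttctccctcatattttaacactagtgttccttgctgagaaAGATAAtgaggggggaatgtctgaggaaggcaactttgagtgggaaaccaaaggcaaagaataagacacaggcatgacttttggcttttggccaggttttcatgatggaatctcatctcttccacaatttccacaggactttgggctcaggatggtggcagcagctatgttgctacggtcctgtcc
Fech, chr18:60248476-60248775, minus strand: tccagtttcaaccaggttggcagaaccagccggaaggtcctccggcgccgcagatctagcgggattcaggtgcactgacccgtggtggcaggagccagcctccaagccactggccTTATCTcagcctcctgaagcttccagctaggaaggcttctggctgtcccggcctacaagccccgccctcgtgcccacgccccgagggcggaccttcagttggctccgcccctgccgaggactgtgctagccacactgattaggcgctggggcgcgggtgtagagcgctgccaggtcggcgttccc
Rhd, chr5:152370950-152371249, plus strand: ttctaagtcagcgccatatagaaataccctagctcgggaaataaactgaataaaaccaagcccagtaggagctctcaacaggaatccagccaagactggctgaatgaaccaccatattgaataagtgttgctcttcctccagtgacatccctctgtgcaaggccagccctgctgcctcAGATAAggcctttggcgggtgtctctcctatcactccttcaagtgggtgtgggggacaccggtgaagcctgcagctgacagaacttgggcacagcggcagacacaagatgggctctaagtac
The matches began 136, 135 and 72 bases before the start in Alas2, Fech and Rhd. They were the 3 with a match among 7 called erythroid genes with a promoter in the table, and 3 of 11 tested erythroid genes held one, against 18.9% of all 33469 promoters. These letters are a description and show no binding.

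Transporters were called higher more often than lower, with 19 of 156 solute carriers higher and 7 lower. The amino acid transporter Slc7a6 had 912, 647 and 608 in the right lungs, against 243, 288 and 312 in the controls (log2 difference 1.27 ± 0.18, adjusted p = 0.000177). The pyrimidine nucleotide carrier Slc25a33 had 876, 659 and 669 in the right lungs, against 264, 341 and 431 in the controls (1.04 ± 0.17, adjusted p = 0.000664). The bicarbonate carrier Slc4a7 (0.89 ± 0.13) and the phosphate carrier Slc20a1 (0.79 ± 0.15) rose as well. With any 1 array left out 12 to 18 rose and 1 to 6 fell. The counts were 12 and 2 without right replicate 1, and 1 fell without right replicate 2, while 3 or 4 fell without control replicate 2, 3 or 4 or right replicate 3. Of 22 channels and pumps of fluid clearance 2 rose, Atp1b1 and Sgk1, and 1, Aqp5, fell. Atp1b1, a subunit of the sodium pump, had 5548, 4061 and 4323 in the right lungs, against 2253, 2461 and 2622 in the controls (0.90 ± 0.11, adjusted p = 6.2e-05). Among 34 collagens, laminins and integrins 5 rose and 2 fell, with the laminin chain Lama2 at 0.84 ± 0.13 and the integrin Itga7 at 0.86 ± 0.14. That count of rises was 3 without right replicate 1 or 2 or control replicate 1, 3, 4 or 6, and 1 fell without any right lung.

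Whether the right lung at 30 min differed from the left lung of the same rats was tested directly. The beta-actin 3'/5' ratio was 4.81, 1.53 and 2.30 in left replicates 1, 2 and 3, beside 1.47, 1.49 and 2.93 in the right lungs. For Gapdh it was 1.92, 1.36 and 1.68 in the left lungs. Left replicates 1 and 3 were thus above every control in both ratios, as was right replicate 3. Over 10533 probe sets 3 were higher and 1 lower in the right than in the left lung (0.038% in either direction by limma, with 905 at an unadjusted p under 0.05). Mief1, a mitochondrial fission factor, had 246, 204 and 267 in the right lungs, against 88.7, 139 and 88.2 in the left lungs (log2 difference 1.03 ± 0.15, adjusted p = 0.0150). Id1, a target of BMP signalling, had 5293, 4351 and 4879 in the right lungs, against 3107, 2335 and 2616 in the left lungs (0.85 ± 0.13, adjusted p = 0.0150). The ubiquitin ligase Rnf144b (0.87 ± 0.14) was higher in the right lung too. The ubiquitin ligase Mylip, which degrades the LDL receptor, had 708, 558 and 594 in the right lungs, against 1379, 1222 and 1473 in the left lungs (-1.10 ± 0.14, adjusted p = 0.00324). None of the 4 passed between the right lungs and the controls, with log2 differences of 0.11, 0.30, 0.28 and -0.31 for Mief1, Id1, Rnf144b and Mylip (adjusted p = 0.631, 0.0890, 0.130 and 0.0944). With the replicate number as a block, which pairs the lungs of a rat, 4 were higher and 2 lower, Cd52 and Rasgrp2 being added at an adjusted p of 0.0217 each. Without right replicate 3, 0 were higher and 2 lower, and without left replicate 3, 0 were higher and 1 lower. Fitted on the 6 arrays of both lungs alone 0 passed, with adjusted p of 0.469 for Mief1, Id1 and Rnf144b and 0.379 for Mylip.

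Of the 947 genes called against control 0 passed in right against left by limma, where 0.0518% of all genes did (644 at an unadjusted p under 0.05). That count is of the fit without the block. Cd52 and Rasgrp2, which passed with the block, are both among the 947. Cd52 also passed with the actin ratio as a covariate (adjusted p = 0.0220). Of these genes 863 differed by under 0.5 on the log2 scale between the lungs. The median size of that difference was 0.16 among them and 0.14 over all genes, beside a median SE of 0.17. Both lungs were set against the same controls, and a difference that misses the threshold does not show that the lungs acted alike. Several erythroid genes had right minus left differences above 1 on the log2 scale. Slc4a1 had 511, 453 and 633 in the right lungs, against 216, 227 and 195 in the left lungs, with no overlap, but did not pass (log2 difference 1.22, adjusted p = 0.0641). Alox15 (1.57, adjusted p = 0.0641) and Alas2 (1.53, adjusted p = 0.109) did not pass either in this fit. Alox15 passed with a pseudocount of 100, a stricter filter or the actin ratio as a covariate (adjusted p = 0.0429, 0.0452 and 0.0479). It also passed without right replicate 1 or 2 (adjusted p = 0.0424 and 0.0470), but not without right replicate 3 (adjusted p = 0.152). Ccl2, Areg and Il6 had right minus left log2 differences of -1.0, -1.13 and -1.35 and did not pass (adjusted p = 0.593, 0.561 and 0.556).

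Right lungs at 3 h were set against right lungs at 30 min, which came from other rats. Over probe sets 4 were higher and 17 lower at 3 h (0.199% in either direction, with 1432 at an unadjusted p under 0.05), and among genes 1 was higher and 14 lower (0.194%). Cd36, a fatty acid transporter, was the gene that was higher, with 3934, 2899 and 2678 at 3 h, against 1469, 1774 and 880 at 30 min (log2 difference 1.23, adjusted p = 0.0401). Among those lower at 3 h were Slc4a1 (-1.27), Alox15 (-1.68), Bpgm (-1.6), Ube2o (-1.5), Rbm38 (-1.47), Cd52 (-1.75) and Mx2 (-1.22). Slc4a1 had 224, 151 and 246 at 3 h, against 511, 453 and 633 at 30 min, and Mx2 had 198, 299 and 200 at 3 h, against 824, 374 and 583 at 30 min. In both genes every lung at 3 h was below every lung at 30 min. Of the 947 genes called at 30 min against control, which are 12.3% of all tested genes, 11 were among the 15. Both comparisons use the same 3 right lungs at 30 min, so part of this overlap is built in. It does not by itself show a return towards control. Without right 30 min replicate 3, 0 probe sets passed in either direction, and fitted on the 6 right lungs alone 0 passed.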

How the data were processed

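RNA of 18 rat lungs, extracted with Trizol, was hybridised to 1 Affymetrix rat 230A array each. The deposited values were MAS5 signals, a linear intensity per probe set, and GeneSpring 7.2 was used by the authors per the series' design text. The 2% trimmed mean was close to 500.1 on every array, so the deposited intensities had been scaled. Of 15923 probe sets, 57 AFFX controls were left out. Signals were transformed as log2(signal + 25), and 10533 probe sets with at least 3 of 18 arrays above 173.6, the 40th percentile, were tested. The transform understates changes of dim probe sets. Group means over the 18 arrays were fitted in limma 3.58.1 (R 4.3.3) with Benjamini-Hochberg adjustment, and adjusted p under 0.05 was the call. Gene names came from the platform annotation: 12783 probe sets had 1 symbol, 312 several and 2771 none. Each gene was taken at its probe set of highest mean, giving 7728 genes. Other probe sets were counted for the genes eligible to be named. Of 56 of called genes 21 had the same call, 35 none and 0 the opposite, and of 19 of uncalled genes 3 were called. The members and lists were chosen with earlier results of these data known.

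Eligible to be named were the 20 largest non-overlapping rises and falls, up to 8 called members and the first 3 members of each list, and the genes called against the left lung or at 3 h. Not all of them are named in the text. Files name no scan batch, and the number of arrays limits the precision. Left and right lungs at 30 min come from the same rats, and lungs of the same replicate number were taken as pairs. The 3 pairs had correlations of 0.12, 0.31 and 0.15 between their departures from the group mean. The fits were tested on simulated data. Figures used matplotlib 3.10.9, and the exact tests scipy 1.17.1.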

Additional observations from a re-analysis of the deposited data

Results flagged for a closer look

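In 13 gene groups of controls 1 array lay far from the other 5, beyond Dixon's 95% limit, over 177 genes examined. Chance flags about 1 in 20 groups. Groups of 3 lungs are too small for this check, so only controls could be found this way, and no explanation was tested.

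Among genes that rose in the right lung at 30 min, Fkbp5 had its highest control signal, 507, in control replicate 6, and Tfpi2 its highest, 82.0, in control replicate 1. S100a8 and S100a9, both calgranulins, had theirs, 696 and 2342, in the same array, control replicate 2. The growth factor Tgfb2 was highest among controls at 595 in control replicate 3, and the receptor Fzd4 at 1410 in control replicate 4. Rbm38, Gclc and Ifit3 were all lowest in control replicate 5, at 293, 288 and 183. Crem was lowest in control replicate 2, at 60.5.

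Among genes that fell, Cxcr4 had its lowest control signal, 1312, and the chromatin protein Arid4a its highest, 392, in control replicate 2. The glucocorticoid receptor Nr3c1 was lowest in control replicate 4, at 1124.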

How the results depend on the processing

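Of 177 genes examined, 0 changed sign under any alternative. The number that lost their call was 0 with quantile normalization and with a stricter filter (149 genes tested there), 2 with only the compared arrays, 3 and 5 with pseudocounts of 5 and 100, 4 with trend and robust priors, 5 with median centring, 11 with the actin ratio as a covariate and 21 with no filter. With 1 array left out 18 to 55 lost it, the most without right replicate 1. Leaving out 1 array gave 383 to 568 probe sets higher and 428 to 638 lower than control. With the replicate number as a block these were 208 and 207, and 85 genes lost their call. Right lungs and controls share only a number (correlations 0.00, -0.06 and -0.10), so this block pairs no rats.

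Right minus left at 30 min had 3 higher and 1 lower. With a pseudocount of 100 it had 5 and 3, with a stricter filter 5 and 4, and with only the compared arrays 0 and 0. The actin covariate gave 8 higher, quantile normalization 2 lower and the replicate block 2 lower. With 1 array left out 0 to 9 were higher and 1 to 7 lower.

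Right at 3 h minus 30 min had 4 higher and 17 lower. With no filter it had 2 and 8, with a stricter filter 28 lower, with quantile normalization 7 higher, with only the compared arrays 0 and 0, and with the replicate block 0 and 5. With 1 array left out 0 to 20 were higher and 0 to 40 lower. The causes of these differences were not tested. With 3 lungs a group, small differences between the lungs or times may go uncalled.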

Other observations

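Fuel and sterol genes had few calls in the right lung at 30 min against control. Of 36 genes of fatty acid uptake and oxidation 3 fell and 0 rose by limma (5 higher at an unadjusted p under 0.05), and 0 to 2 fell with 1 array left out. Of 22 genes of cholesterol synthesis and uptake 1 rose, against 0 without right replicate 2 and up to 5 without another array. Of 15 complement genes 0 passed, with 1 higher and 1 lower at an unadjusted p under 0.05. Of 14 phosphodiesterases and adenylyl cyclases 0 passed, with 1 higher and 2 lower at that level. Over all 7728 genes 926 were higher and 1187 lower at that level.

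Among 55 translation factors 5 were called higher and 2 lower, and 0 were lower without right replicate 3. Enzymes of ubiquitin conjugation and removal rose in 7 of 90 and fell in 2. Without right replicate 1 these were 4 and 1. Potassium, calcium and TRP channels rose in 3 of 41 and fell in 1, and 1 rose without right replicate 1. Of 19 prostaglandin and leukotriene enzymes 1, Alox15, rose. Promoters with the AP-1 letters were 0 of 15 among immediate early factors, against 4.63% of all rat promoters, and the clock E-box was in 2 of 12 clock gene promoters, against 6.42%.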
